A study of Mus musculus with 8 samples.

Results

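Leukocyte integrins were followed in red pulp macrophages, which clear aged red blood cells in the spleen. The group holds 10 of the 55414 gene rows in the deposited table: the alpha chains Itgad, Itgam, Itgax and Itgal with their shared beta chain Itgb2, the alpha chains Itga4 and Itga9 with Itgb1, and Itgav with Itgb3. Their rows were found by matching each Ensembl ID to these mouse symbols, a step that used no values. The genes themselves were chosen with earlier results of these data known. All 10 passed the filter on low counts that left 14004 genes to test. Mice of 1 genotype, WT C57BL/6J, had either cecal ligation and puncture (CLP) or a sham operation, and their splenic macrophages were sorted by flow cytometry 2 h later, with 4 libraries in each group. CLP models sepsis: the tied and pierced cecum releases gut bacteria into the abdomen. The sham mice are the surgical controls. The gate used for the sort is not described in the labels. Neither age nor sex nor the number of mice behind a library is given in the labels, so every p-value rests on the spread among these libraries, which may be technical.

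Integrins are paired receptors of 1 alpha and 1 beta chain that hold cells to other cells and to matrix, and that can be switched between a resting and an active shape from inside the cell. The beta2 integrins are made only by leukocytes. Itgam (CD11b) with Itgb2 (CD18) is complement receptor 3, Itgax encodes CD11c, Itgal encodes CD11a of LFA-1, which binds ICAM1, and Itgad encodes CD11d, a chain known from splenic red pulp macrophages. Itga4 and Itga9 each pair with Itgb1, and both of these pairs can bind VCAM1. Itgav with Itgb3 is the vitronectin receptor, which takes part in the uptake of dying cells through bridging proteins.

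Total counts lay between 15392992 and 25665633 per library, and a level of 1 CPM (counts scaled to library size with trimmed mean of M-values factors, TMM) stood for 15.1 to 27.6 reads. The red pulp macrophage label was checked against 14 marker genes, all 14 of which were tested. The macrophage adhesion gene Vcam1 averaged 12611 ± 1181 CPM in the sham libraries and 16138 ± 1980 CPM after CLP (SD, n = 4 each), and Spic, the transcription factor of these macrophages, at 1186 ± 118 and 2213 ± 370 CPM. Of the 14 markers 8 were higher and 2 lower. The lower ones were Mertk, a receptor for dying cells (1145 ± 14 and 802 ± 51 CPM, log2 fold change -0.51, edgeR adjusted p = 0.000175), and the iron exporter gene Slc40a1 (4514 ± 501 and 3414 ± 320 CPM, log2 fold change -0.40, adjusted p = 0.0074). Cd163, the haemoglobin scavenger receptor, did not pass (1032 ± 82 and 925 ± 115 CPM). The 14 markers together made up 44834 to 54773 CPM in the sham and 53268 to 60383 CPM in the CLP libraries. Of all genes tested, 43.3% were called by edgeR's quasi-likelihood test at an adjusted p under 0.05: 19.8% of all genes were higher after CLP and 23.5% lower. Sham replicate 4 stood apart in its erythroid markers, which summed to 1468 CPM there against 285 to 489 CPM in the other sham libraries and 730 to 1259 CPM in the CLP libraries.

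The promoters of Itga4, Itga9 and Itgb1 are printed because their RNA changed by different amounts although both alpha chains use the same beta chain. They were thus chosen with their values in view. Each sequence is the 250 bases before the RefSeq start site, 5′ to 3′, from the GRCm38.p6 promoter table, which is an older build than the mm39 named for the counts. Of the 10 genes, 6 were listed in that table. Capitals mark matches on either strand to the GC box GGGCGG or to GAGGAA, a core bound by PU.1 and other ETS factors.
Itga4, chr2:79255176-79255425, plus strand: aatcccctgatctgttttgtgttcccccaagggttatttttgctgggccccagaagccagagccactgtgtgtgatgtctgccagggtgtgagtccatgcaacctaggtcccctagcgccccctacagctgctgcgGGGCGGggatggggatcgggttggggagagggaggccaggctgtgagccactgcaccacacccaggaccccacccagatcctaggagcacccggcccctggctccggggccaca
Itga9, chr9:118711442-118711691, plus strand: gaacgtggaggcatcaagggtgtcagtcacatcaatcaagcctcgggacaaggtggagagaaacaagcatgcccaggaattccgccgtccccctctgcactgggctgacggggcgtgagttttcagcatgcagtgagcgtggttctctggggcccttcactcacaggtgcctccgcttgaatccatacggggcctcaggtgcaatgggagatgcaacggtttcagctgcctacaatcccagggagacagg
Itgb1, chr8:128685404-128685653, plus strand: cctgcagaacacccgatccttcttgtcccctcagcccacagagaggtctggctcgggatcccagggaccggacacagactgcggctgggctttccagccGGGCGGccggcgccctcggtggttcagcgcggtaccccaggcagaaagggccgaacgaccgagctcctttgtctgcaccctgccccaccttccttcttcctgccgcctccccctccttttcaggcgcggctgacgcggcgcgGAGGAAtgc
The Itga4 window holds 1 GC box match and no GAGGAA match, that of Itgb1 holds 1 of each, and that of Itga9 holds neither. Among all 32851 promoters of the table, 32.7% held a GC box and 23.3% a GAGGAA match in the same window. The NF-kB motif and the AP-1 motif TGANTCA were searched as well, and none of these 3 windows holds either, where 3.9% and 6.75% of all promoters do. Among the listed windows not printed, that of Itgax holds 1 AP-1 match and that of Itgav 2 GAGGAA matches. That of Itgam holds 2 GAGGAA matches and 1 GC box match. GC content was 64.0% for Itga4, 58.4% for Itga9 and 68.0% for Itgb1, against a median of 52.4%. These matches describe letters in a window and were not tested against the expression values.

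At 2 h after surgery 8 of the 10 integrin genes were higher in CLP than in sham with TMM scaling (adjusted p under 0.05, edgeR's quasi-likelihood test), and 0 were lower, where 19.8% of all genes tested were higher. The rise was about 2-fold for Itga4 and Itgb3, 1.48-fold for Itgav, 1.35-fold for Itgb2 and Itgb1, 1.40-fold for Itgal, and 1.19-fold for Itgad and Itga9. Itgam and Itgax did not pass. The median log2 fold change of the 10 genes was 0.43, beside -0.05 over all genes tested. Scaling matters here: when library totals replaced the TMM factors, log2 fold changes over all genes shifted by a median of -0.32. Under that scaling 55.1% of all genes were called, 9.18% higher and 46% lower, and 3 of the 10 integrin genes (Itga4, Itgb3 and Itgav) were higher and 0 lower. For 7 of the 10 genes the sham and CLP ranges of CPM were separate, which held for 41.5% of all genes tested.

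**Figure D1:**
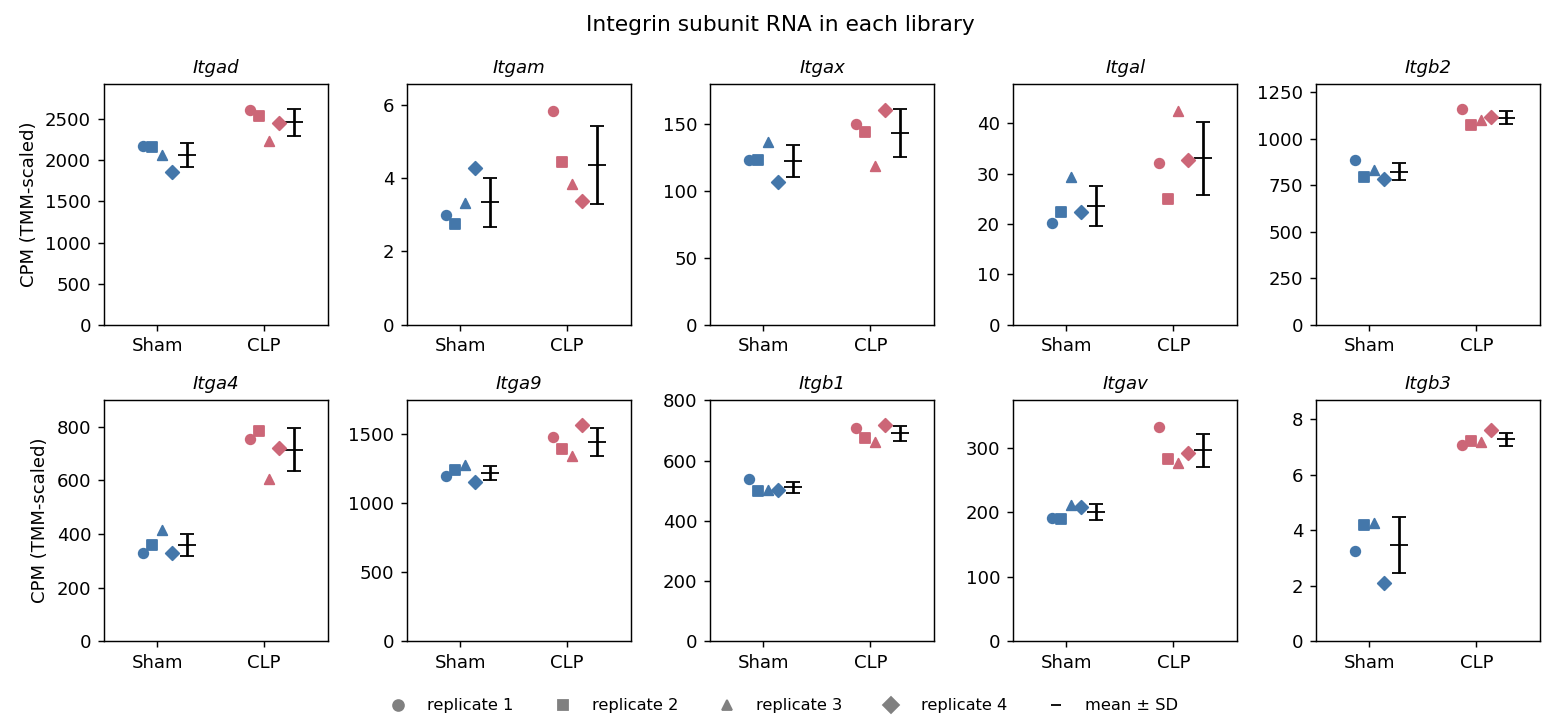
TMM-scaled CPM (linear axes from 0) of the 10 integrin genes in each of the 4 sham and 4 CLP libraries, with marker shapes for replicate numbers and bars for mean ± SD. The groups are separate for 7 genes and overlap for Itgam, Itgax and Itgal.

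Levels were compared between genes per length, as CPM per kb of annotated exon. In sham cells Itgad stood highest at 457 ± 33 CPM per kb, which was rank 50 of the 13951 tested genes with a known length. Itgb2 followed at 269 ± 15, Itga9 at 158 ± 7 and Itgb1 at 125 ± 4 CPM per kb, and the library ranges of these 4 genes were separate from each other. Itga4 (25.6 ± 2.9) and Itgax (25.4 ± 2.5 CPM per kb) had overlapping ranges, and Itgav stood just below them at 18.6 ± 1.1 CPM per kb. Itgal was at 3.59 ± 0.60 CPM per kb. Itgam (0.665 ± 0.132) and Itgb3 (0.585 ± 0.172 CPM per kb) were the lowest and overlapped. In CLP cells the order of the first 8 was the same, with overlapping ranges for Itga9 and Itgb1 (187 ± 13 and 169 ± 6 CPM per kb) and for Itgax and Itgav. Itga4, at 51.2 ± 5.6 CPM per kb, stood clear of Itgax at 29.8 ± 3.7 CPM per kb in that group. Itgb3, at 1.23 ± 0.04 CPM per kb, stood above Itgam at 0.870 ± 0.212 CPM per kb. The order of close neighbours depended on the length used. With the longest transcript as length Itgav (41.9) stood above Itgax (35.4 CPM per kb) in CLP, and Itgav in sham moved to 28.4 CPM per kb, still below Itgax at 30.2 CPM per kb.

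**Figure D2:**
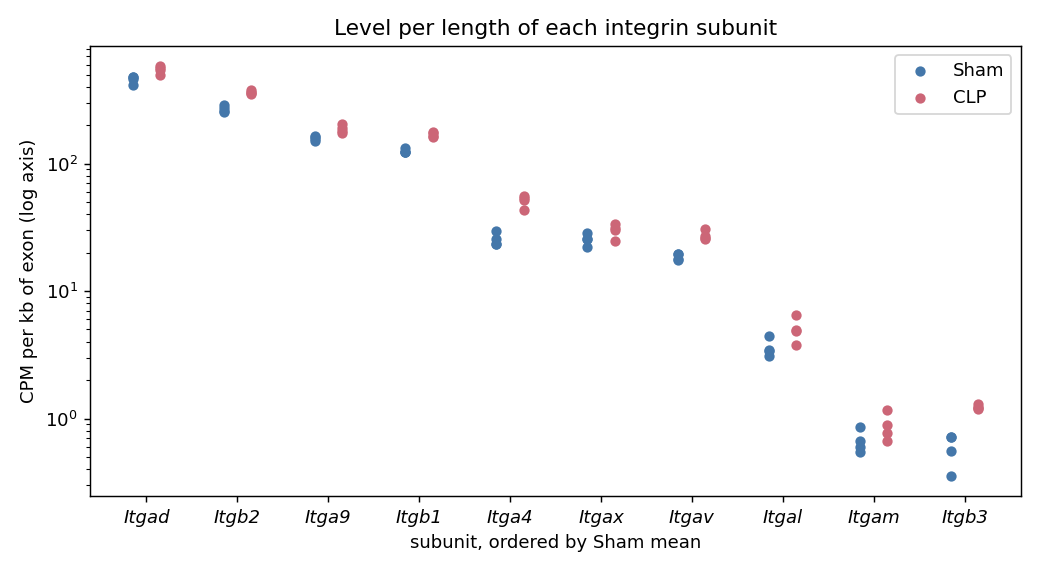
CPM per kb of exon (log axis) of each integrin gene in the 4 sham and 4 CLP libraries, ordered by the sham mean. Itgad is the highest gene in both groups, and Itgam and Itgb3 lie near or below 1 CPM per kb.

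Among the 4 alpha chains that pair with Itgb2, Itgad held 93.9% ± 0.5 of the summed CPM per kb in sham and 93.9% ± 0.4 in CLP (SD, n = 4 each). Itgax held 5.23% ± 0.37 and 5.12% ± 0.44, Itgal 0.741% ± 0.134 and 0.877% ± 0.251, and Itgam 0.139% ± 0.039 and 0.149% ± 0.030. CD11d RNA was thus the main partner chain RNA for CD18 in every library, between 93.2% and 94.3% of the sum. The level of Itgam carries a counting limit. In GENCODE M21 a read-through gene, Gm49368, covers 68.7% of the Itgam exons on the same strand and is listed at 0 in all 8 libraries. Reads in shared exons may have gone uncounted, and neither the strand setting nor the overlap rule of the counting is known from the labels. Over the exon length that no other gene shares, chosen after seeing the data, Itgam would stand at 2.12 CPM per kb in sham and 2.78 CPM per kb in CLP, against 570 and 680 CPM per kb for Itgad. That would put Itgam above Itgb3 in both groups, since Itgb3 stays at 0.585 and 1.23 CPM per kb, which turns their order in CLP.

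Itgad was at 2172, 2158, 2064 and 1853 CPM in sham replicates 1 to 4 and at 2615, 2544, 2231 and 2452 CPM in CLP replicates 1 to 4. Every CLP library lay above every sham library, by a narrow margin between CLP replicate 3 and sham replicate 1. Itgad had a log2 fold change of 0.26 with TMM scaling (SE 0.08, edgeR's quasi-likelihood adjusted p = 0.0277), which turned to -0.062 (adjusted p = 0.476) with library totals. Leaving out any 1 of CLP replicates 1, 2 and 4 and Sham replicates 3 and 4 ended the call (adjusted p 0.0558 to 0.0794).

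Itgb2, the common CD18 chain, was at 884, 791, 831 and 783 CPM in the sham libraries and at 1158, 1074, 1098 and 1115 CPM in the CLP libraries. All CLP values lay above all sham values, and the spread within each group was small. Itgb2 had a log2 fold change of 0.43 (SE 0.07, edgeR's quasi-likelihood adjusted p = 0.000537), and 0.12 (adjusted p = 0.112) with library totals.

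Itgax was at 123, 123, 136 and 107 CPM in sham and at 150, 144, 119 and 160 CPM in CLP. CLP replicate 3 fell inside the sham range, so the groups overlapped. The log2 fold change of 0.23 (SE 0.10) did not pass (adjusted p = 0.0948), and passed without CLP replicate 3 (0.31, adjusted p = 0.0124, edgeR). With library totals it was -0.089. Of the 9 dendritic cell markers 8 were tested, and 2 were higher and 1 lower, beside 19.8% higher and 23.5% lower over all genes tested. The 9 markers summed to 63.6 to 84.7 CPM in sham and 84.3 to 101 CPM in CLP. Whether such cells carried part of the Itgax reads was not tested.

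Itgal was at 20.2, 22.4, 29.3 and 22.5 CPM in sham and at 32.1, 24.9, 42.4 and 32.7 CPM in CLP. CLP replicate 2 lay below sham replicate 3, and CLP replicate 3 was the highest. With a log2 fold change of 0.49 it passed in edgeR (SE 0.16, adjusted p = 0.0315). Leaving out any 1 of CLP replicates 1, 3 and 4 and Sham replicates 1 and 2 ended the call (adjusted p 0.0568 to 0.0667), as did library totals (0.17, adjusted p = 0.403). The log2 fold change was 0.35 without CLP replicate 3. Itgal is also made by lymphocytes. Of the 12 T and NK cell markers 0 were higher and 1, Ncr1, was lower, beside 19.8% higher and 23.5% lower over all genes tested. The 12 markers summed to 110 to 125 CPM in sham and 117 to 165 CPM in CLP, with CLP replicate 3 the highest. The part of such cells in the Itgal values was not tested.

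Itgam was at 3.00, 2.76, 3.32 and 4.28 CPM in sham and at 5.83, 4.45, 3.84 and 3.38 CPM in CLP, which is 51 to 104 reads per library. The groups overlapped, and the log2 fold change of 0.39 (SE 0.23) did not pass (adjusted p = 0.193). Neutrophils and monocytes make much CD11b. Of the 13 neutrophil markers 4 were tested, and 3 were higher and 0 lower, beside 19.8% higher and 23.5% lower over all genes tested. The summed level of the 13 was 77.5 to 94.1 CPM in sham and 103 to 176 CPM in CLP. Most of it was Csf3r (79.0 ± 5.9 and 111 ± 26 CPM, 1.40-fold, edgeR adjusted p = 0.0185). S100a9 rose from 2.06 ± 1.12 to 9.90 ± 5.64 CPM (4.91-fold, adjusted p = 0.0053) and S100a8 from 1.6 ± 0.88 to 6.93 ± 3.01 CPM (adjusted p = 0.00351). The defining marker Ly6g was at 0 CPM in every sham library and averaged 0.016 CPM in CLP. Of the 9 monocyte markers 8 were tested and 0 changed (sum 533 to 649 CPM in sham and 620 to 654 CPM in CLP, most of it Treml4, which red pulp macrophages also express). Ly6c2 was at 1.47 ± 0.47 and 1.67 ± 0.39 CPM. Whether such cells carried part of the Itgam reads was not tested. In such bulk libraries a change in the number of cells of a type and a change in RNA per cell cannot be told apart.

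Itga4 had the clearest rise of the group. It was at 329, 358, 416 and 330 CPM in the sham libraries and at 753, 784, 604 and 721 CPM in the CLP libraries. The lowest CLP library, replicate 3, still lay well above the highest sham library, which was also replicate 3. On the log2 scale the change was 1.00, a 2.00-fold rise (SE 0.10, edgeR's quasi-likelihood adjusted p = 2.84e-05), and 0.68 (adjusted p = 0.000244) with library totals. It kept its call in all 17 alternatives run.

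Itga9, the other partner of Itgb1 here, was at 1196, 1237, 1272 and 1154 CPM in sham and at 1474, 1392, 1338 and 1564 CPM in CLP. The groups did not overlap, but lay close together. Its log2 fold change was 0.25 (SE 0.08, edgeR adjusted p = 0.0207). The call ended without CLP replicate 1 or CLP replicate 4 (adjusted p 0.0533 and 0.0697), and the sign turned to -0.072 (adjusted p = 0.362) with library totals.

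Itgb1 was at 538, 501, 501 and 504 CPM in sham and at 708, 675, 663 and 717 CPM in CLP. The 2 groups were well apart relative to their spread. Itgb1 changed by 0.44 on the log2 scale (SE 0.07, edgeR adjusted p = 0.000345), where Itgb2 changed by 0.43, and was 0.12 (adjusted p = 0.0999) with library totals.

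Itgav was at 191, 189, 212 and 209 CPM in sham and at 332, 283, 277 and 291 CPM in CLP. CLP replicate 1 was the highest, and the groups did not overlap. The log2 fold change was 0.56 (SE 0.08, adjusted p = 0.000207 in edgeR), and 0.24 (adjusted p = 0.0228) with library totals.

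Itgb3 was at 3.26, 4.20, 4.25 and 2.10 CPM in sham and at 7.05, 7.21, 7.18 and 7.61 CPM in CLP, from 51 to 102 and 110 to 141 reads per library. The CLP libraries were close to each other and all above the sham libraries, of which replicate 4 was the lowest. The log2 fold change was 1.08 (SE 0.22, adjusted p = 0.00216 in edgeR), or 0.92 without Sham replicate 4, and 0.76 (adjusted p = 0.0113) with library totals. Itgb3 is also abundant in platelets, where it pairs with Itga2b. Of the 13 platelet markers 9 were tested, and 6 were higher and 0 lower, beside 19.8% higher and 23.5% lower over all genes tested. The median log2 fold change of the 9 markers was 1.55, beside -0.05 over all genes tested. Itga2b was at 2.00 ± 0.63 CPM in sham and rose to 4.71 ± 0.81 CPM (2.35-fold, adjusted p = 0.00285) and Ppbp, a platelet chemokine, from 3.35 ± 0.36 to 10.6 ± 1.4 CPM. The 13 markers summed to 72.4 to 88.2 CPM in sham and 84.7 to 114 CPM in CLP, most of it Clec1b, which did not pass (66.8 ± 7.7 and 70.8 ± 13.6 CPM). That sum mainly follows Clec1b and shows little of the change in the remaining markers. None of the 13 was at 0 in every library. The part of platelet RNA in the Itgb3 rise was not tested.

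**Figure D3:**
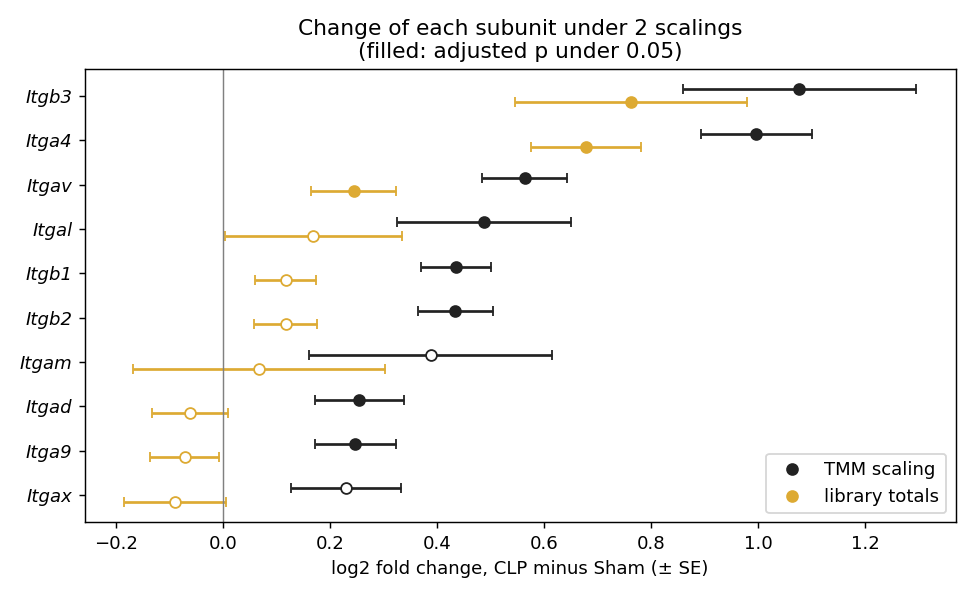
Log2 fold change (CLP minus sham, ± SE) of each integrin gene with TMM scaling and with library totals, filled where the adjusted p was under 0.05. Itga4, Itgb3 and Itgav lie above 0 and are filled under both scalings, whereas Itgad, Itga9 and Itgax change sign.

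Ratios of counts within a library need no scaling between libraries, so 11 of them were compared between the groups with two-sided exact permutation tests over 70 assignments. The smallest p these allow is 0.0286, and with Benjamini-Hochberg adjustment over the 11 ratios none passed 0.05. A ratio at that smallest p could pass only if most of the 11 reached it too. Not passing therefore says little about any single ratio. In 4 ratios the groups did not overlap, each with exact p = 0.0286 and adjusted p = 0.0786. The log2 ratio of Itga4 to Itgb1 went from -0.52 ± 0.19 in sham to 0.044 ± 0.147 in CLP (SD, n = 4 each), a difference of 0.56 that was higher in 4 of 4 CLP libraries. The ratio of Itga4 to Itgb2 differed by the same 0.56. By arithmetic this follows from Itga4 to Itgb1, since Itgb2 to Itgb1 differed by 0.00018, so it is no separate result. The ratio of Itga9 to Itgb1 went the other way, from 1.25 ± 0.09 to 1.06 ± 0.05, a difference of -0.19. The ratio of Itgb3 to Itgb1 went from -7.25 ± 0.48 to -6.57 ± 0.05, a difference of 0.69.

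The ratio of the 2 main beta chains, Itgb2 to Itgb1, was 0.69 ± 0.05 in sham and 0.69 ± 0.04 in CLP on the log2 scale. The difference was 0.00018 (exact permutation p = 1, 4 against 4 libraries) and stayed between -0.016 and 0.016 when any 1 library was left out. The ratio of Itgad to Itgb2 was 1.32 ± 0.09 in sham and 1.14 ± 0.09 in CLP, a difference of -0.18 (exact permutation p = 0.0571, adjusted p = 0.105). Itgax to Itgb2 differed by -0.21 (exact permutation p = 0.114, adjusted p = 0.18), and Itgav to Itgb1 by 0.13 (exact permutation p = 0.229, adjusted p = 0.314). Itgav to Itgb3 differed by -0.56 (exact permutation p = 0.0571, adjusted p = 0.105), and by -0.32 without Sham replicate 4. Itgal and Itgam to Itgb2 differed by 0.039 and -0.057 with library SDs of 0.26 to 0.31 in each group (exact permutation p = 0.8 and adjusted p = 0.88 for both), and each changed sign when single libraries were left out.

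**Figure D4:**
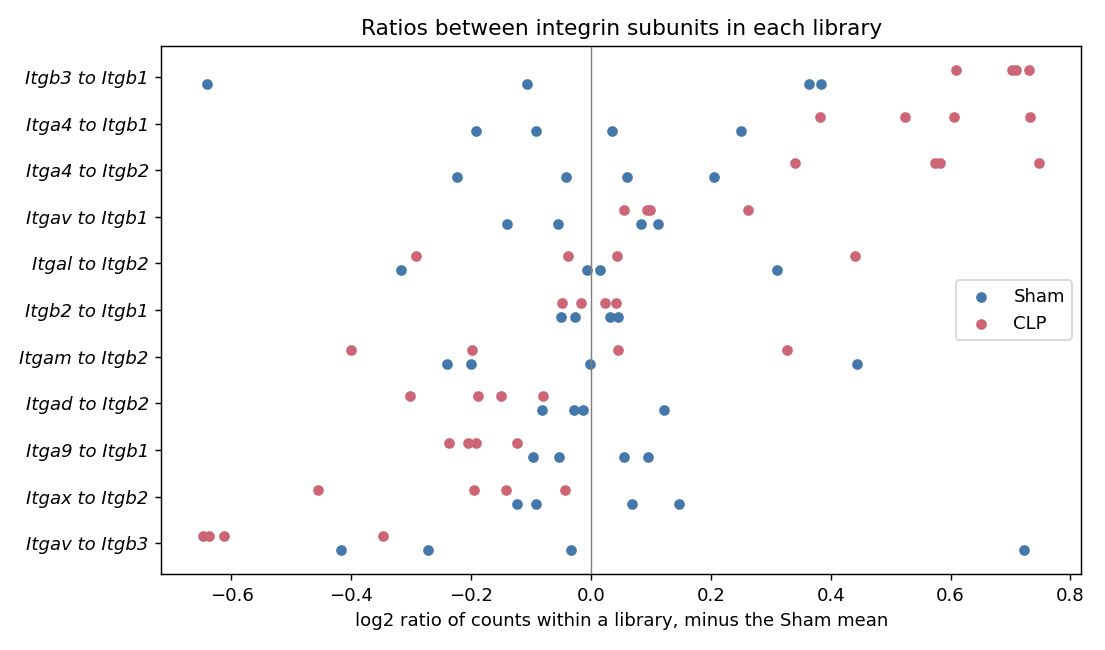
Log2 ratio of the counts of 2 integrin genes within each library, minus the sham mean of that ratio, for 11 ratios in 4 sham and 4 CLP libraries. The groups are separate for Itga4 to Itgb1, Itga4 to Itgb2, Itgb3 to Itgb1 and Itga9 to Itgb1, and coincide for Itgb2 to Itgb1.

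The largest integrin change lay outside the 10 genes. Of the 16 other integrin subunits 11 were tested, and 3 were higher and 0 lower (median log2 fold change 0.20), beside counts of 3 and 1 with library totals. Over all genes tested 19.8% were higher and 23.5% lower, and 9.18% and 46% with library totals. Itga5, the alpha chain of the fibronectin receptor with Itgb1, was at 50.9, 53.3, 74.7 and 22.1 CPM in sham and at 297, 245, 346 and 320 CPM in CLP. All CLP libraries lay far above the sham libraries, and the call held in all 17 alternatives run. It was a 6.02-fold rise (log2 fold change 2.59, SE 0.34, adjusted p = 0.000509 in edgeR). Itga6, a laminin receptor chain, rose from 4.82 ± 0.24 to 8.68 ± 0.94 CPM, and Itga2b is given above. Itgb5, a further partner of Itgav and the highest of these subunits per length, did not pass (440 ± 40 and 454 ± 64 CPM, log2 fold change 0.05, adjusted p = 0.76, and -0.27 with adjusted p = 0.0419 with library totals). Per length Itgb5 stood at 124 ± 11 CPM per kb in sham and 128 ± 18 CPM per kb in CLP. Itgb1 was at 125 ± 4 and 169 ± 6 CPM per kb, and Itgb3 at 0.585 and 1.23 CPM per kb. The ratio of Itgav to Itgb5 was not tested.

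Counts in the related lists stand beside 19.8% higher and 23.5% lower over all genes tested, and 9.18% and 46% with library totals. Of 24 activators and tail adaptors, which switch integrins on from inside the cell or link them to actin, 22 were tested. With TMM scaling 11 were higher and 1 was lower (median log2 fold change 0.22). Library totals gave 3 higher and 7 lower. Cyth1, the beta2-binding protein cytohesin 1, rose from 152 ± 17 to 370 ± 73 CPM (2.43-fold, adjusted p = 6.81e-05 in edgeR). The adaptor Pxn, which encodes paxillin and binds the alpha4 tail, rose from 225 ± 21 to 477 ± 56 CPM (2.12-fold, adjusted p = 1.37e-05). Rasgrp2, an activator of RAP1, was the lower member and fell from a sham level of 129 ± 8 CPM to 80.5 ± 13.0 CPM (adjusted p = 0.000494, log2 fold change -0.68). The actin crosslinker Actn1, the highest per length, rose 1.32-fold, which was 0.08 on the log2 scale without a call (adjusted p = 0.364) with library totals. Fermt2, a kindlin at 2.69 ± 0.87 and 7.18 ± 0.62 CPM, also rose, whereas the leukocyte kindlin Fermt3 was at 245 ± 13 and 247 ± 22 CPM and did not pass (log2 fold change 0.01, SE 0.08). Both kindlins were named after their values were seen.

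Of 10 genes listed as inhibitors at the tail or on RAP1, 2 were higher and 2 lower (median -0.04). These shares were near those of all genes tested, and the counts were 1 and 6 with library totals. Tns1 and Tns3 in this list encode tensins, which link integrins to actin, so its counts are not of inhibitors alone. Tns3 rose 1.51-fold and Rap1gap2 1.33-fold. Rap1gap2, the 1 higher gene that is no tensin, was not called with library totals (adjusted p = 0.485). Rasa3 averaged 136 ± 8 CPM in sham, against 108 ± 10 CPM after CLP (log2 fold change -0.34), and the RAP1 inactivator Sipa1, named after its value was seen, fell by 0.32 on the log2 scale (edgeR adjusted p = 0.0128). Without Sham replicate 1 or Sham replicate 2 the list had 1 lower gene, and Rasa3 kept its call there, so that of Sipa1 ended. Flna, filamin A, was the highest per length and did not pass (1773 ± 105 and 1999 ± 60 CPM, adjusted p = 0.0754 in edgeR), although its groups did not overlap. It passed with DESeq2 (adjusted p = 0.00902), limma-voom, DESeq2 size factors, the stricter filter and without Sham replicate 1, and was -0.14 with library totals.

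Of 21 kinases and exchange factors downstream of integrins 11 were higher and 2 lower (median 0.24), and 5 and 6 with library totals. Syk, the kinase recruited by beta2 integrins through ITAM adaptors, rose from 1005 ± 96 to 1685 ± 208 CPM, and the Src family kinase Lyn from 1094 ± 58 to 1671 ± 63 CPM (1.53-fold, adjusted p = 6.38e-05 in edgeR). The adaptor Crk rose 1.64-fold and Bcar1, which encodes its partner p130Cas, 2.93-fold from 3.01 ± 0.99 CPM. The lower members were Fes and Cbl (log2 fold changes -0.39 and -0.30), both chosen with their values in view.

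Of 26 integrin ligands and associated surface or matrix genes 16 were tested, and 9 were higher and 1 lower (median 0.67), with 5 and 1 with library totals. Icam1, the ligand of CD11a and CD11b with CD18, was at 637, 578, 715 and 370 CPM in sham and 2184, 1981, 2443 and 2474 CPM after CLP. That was a 3.95-fold rise (adjusted p = 3e-05 in edgeR). Vcam1, a ligand of both Itga4 and Itga9 pairs that these macrophages make themselves, changed by 0.36 on the log2 scale (edgeR adjusted p = 0.0196) with overlapping groups. The call ended without CLP replicate 1, CLP replicate 2 or Sham replicate 2, and the change was 0.04 (adjusted p = 0.734) with library totals. Thbs1, a matrix ligand of Itgav with Itgb3, rose from 4.84 ± 1.95 to 22.6 ± 5.2 CPM. Cd14, which was in the list because it associates with CD11b and CD18, rose 8.06-fold. The lower member was Icam5 (4.08 ± 0.79 to 2.19 ± 0.51 CPM), named after its value was seen.

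Of 16 surface partners and shedding enzymes 11 were higher and 1 lower (median 0.55), and 7 and 3 with library totals. Plaur, the urokinase receptor that binds CD11b and CD18, was at 3.98, 5.48, 5.07 and 5.51 CPM in sham and 51.4, 32.9, 38.1 and 45.8 CPM after CLP. That was an 8.40-fold rise (adjusted p = 6.76e-07 in edgeR). The tetraspanin Cd63 rose 4.85-fold from 3.41 ± 0.92 CPM. The sheddase Adam8 rose 2.11-fold (edgeR adjusted p = 0.0467) with overlapping groups. That call ended in 10 of 17 alternatives, among them no filter on low counts (adjusted p = 0.164), and the log2 fold change was 0.59 without CLP replicate 3. Cd81, the highest tetraspanin per length, rose 1.25-fold, which was 0.0095 on the log2 scale with library totals. Cd151, named after its value was seen, was the lower member (29.2 ± 1.7 to 20.04 ± 0.70 CPM).

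**Figure D5:**
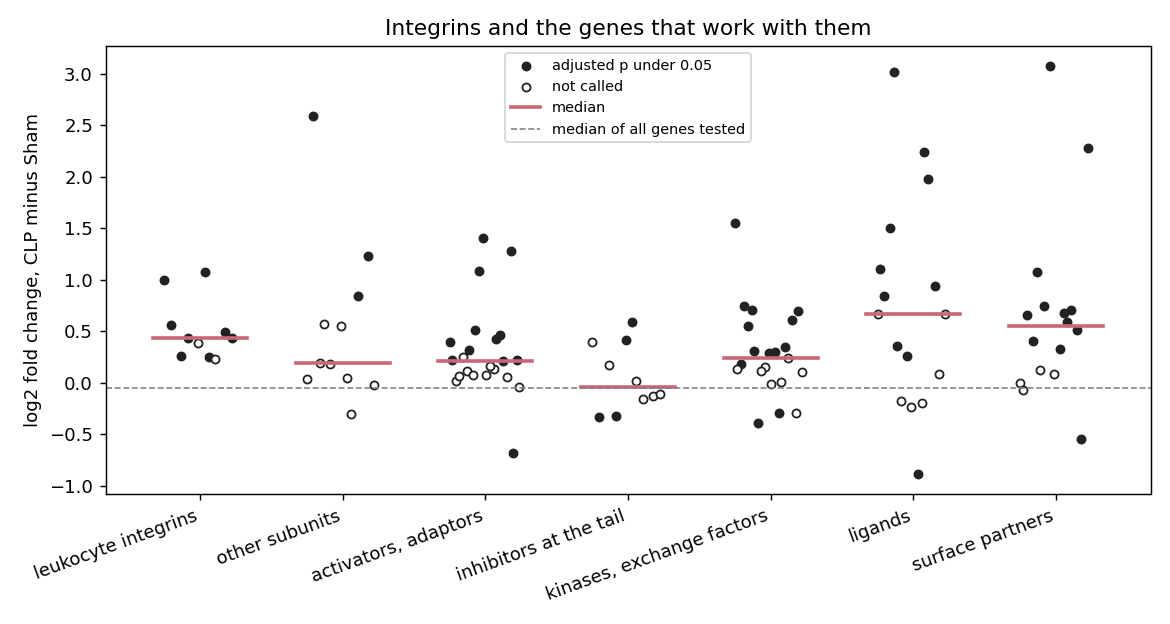
Log2 fold change (CLP minus sham, TMM scaling) of every tested gene in the integrin group and in 6 lists of related genes, filled where the adjusted p was under 0.05, with the median of each list as a bar. The list medians lie between -0.04 and 0.67, and the dashed line is the median of all genes tested, -0.05.

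The genes most like a member were sought among 9030 named genes at a mean of 5 CPM or more, by the root mean square difference of log2 CPM centred on each gene's own mean over the 8 libraries. Itgb3 had the largest fitted log2 fold change of the 10 genes (1.08, SE 0.22, against 1.00 for Itga4), but without Sham replicate 4 it was 0.92 against 0.98 for Itga4. Closest to Itgb3 were Rab20 (0.102), the kinase gene Map3k8 (0.108) and the NF-kB inhibitor gene Nfkbie (0.115), with log2 fold changes of 1.03, 1.02 and 1.02. Closest to Itgad, the highest member, were Prkcb (0.030), Glis3 (0.035) and Wdfy4 (0.039), with log2 fold changes of 0.24, 0.28 and 0.21. The matching used the same 8 libraries, so like fold changes follow from it and are no separate result. No member was lower, so no lowered member was matched.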

How the data were processed

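RNA-seq was done on sorted red pulp macrophages of 8 libraries, 4 per group, grouped by their titles. The authors deposited 1 table of raw counts, with a row for each Ensembl gene. The tools named are STAR 2.7.10b, featureCounts, DESeq2 and FastQC, with build mm39 and no stated roles, per the submitters' processing notes. The library kit was stranded per the labels' protocols. The annotation release and strand setting: not given in the sources used here. Symbols (52081 of 55414 rows) and exon lengths came from GENCODE M21, of an older build, so no gene coordinates are given for the counts.

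edgeR 4.0.16 in R 4.3.3 was fitted on all genes kept by filterByExpr (robust quasi-likelihood F-test, TMM factors, groups only). Benjamini-Hochberg adjustment was over 14004 genes with a threshold of 0.05. The TMM factors were 0.873 to 0.915 in the CLP libraries and 1.08 to 1.15 in the sham libraries, with no overlap between the groups. SE is the absolute log2 fold change over the square root of F. Ratios used a pseudocount of 0.5. No 2 libraries of a group looked like 1 library deposited again (chi-square over degrees of freedom at least 9.25). Named genes were all members, per pathway list the 3 largest called changes at 5 CPM or more and the highest per length, and per marker list the highest and the largest called change, printed where they stand beside an integrin result. Itga2b, Vcam1 as a ligand, Ly6g, Ly6c2, S100a8, Ncr1, Mertk, Slc40a1 and Cd163 fall outside this rule and were chosen with their values in view. The members and lists were chosen with earlier results of these data known. Alternatives were limma-voom (limma 3.58.1), DESeq2 1.42.0, other scalings and filters, surrogate variables (sva 3.50.0), a replicate block and leaving out each library. The edgeR step was tested on simulated data with 200 changed genes, as many raised as lowered. That simulation held no shift between the groups in scaling, so it does not bear on the choice between TMM and library totals. Figures used matplotlib 3.10.9.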

Additional observations from a re-analysis of the deposited data

Results flagged for a closer look

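In 122 groups of 4 libraries, over the named genes and the 11 ratios, 7 had 1 library far from the other 3, by Dixon's 95% critical value for the gap over the range. Chance alone flags about 1 in 20 such groups. Among the integrin values, Itgb1 was at 538 CPM in Sham replicate 1 against 501 to 504 CPM in the other sham libraries, and the log2 ratio of Itgav to Itgb3 was 5.55 in CLP replicate 1 against 5.25 to 5.29. Among related genes, Pxn was at 194 CPM in Sham replicate 4 against 231 to 239 CPM, Actn1 at 1449 CPM in Sham replicate 1 against 1217 to 1241 CPM, and Bcar1 at 12.1 CPM in CLP replicate 3 against 7.36 to 8.01 CPM. Among markers, the platelet gene Ppbp was at 8.54 CPM in CLP replicate 2 against 11.2 to 11.3 CPM, and the B cell gene Cd79b at 15.9 CPM in CLP replicate 3 against 23.0 to 23.9 CPM.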

How the results depend on the processing

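The count of integrin genes higher after CLP was 8 of 10 with DESeq2, limma-voom, DESeq2 size factors, no filter, both surrogate variable fits (the second, from scaled counts, was chosen after seeing the data) and the replicate block, and 8 of 9 with the filter at 5 CPM in 4 libraries, where Itgam was not tested. It was 3 with library totals and 5 to 8 with 1 library left out (5 without CLP replicate 1 and 5 without CLP replicate 4). Over 169 pairs of an integrin gene and an alternative, 150 kept direction and side of the threshold, 15 lost the call, 1 gained it and 3 turned. The 3 were Itgad (-0.062), Itgax (-0.089) and Itga9 (-0.072) with library totals. The cause was not tested beyond the shift of all genes by -0.32 that this scaling brings.

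With library totals the lists gave 1 lower other subunit and 3 higher and 7 lower activators and adaptors. In the inhibitor list, tensins included, 1 gene was higher and 6 were lower. Under that scaling there were 5 higher and 6 lower kinases and exchange factors, 5 higher ligands, and 7 higher and 3 lower surface partners. No filter gave 7 higher activators and adaptors, and a filter at 5 CPM in 4 libraries left 0 lower ligands, since Icam5 was no longer tested. With 1 library left out, the inhibitor list had 1 to 2 lower genes. Also turned, with library totals, were Itgb5 (-0.27), Flna (-0.14), Clec1b (-0.24), Treml4 (-0.19), Cd4 (-0.082), Jchain (-0.087), Slc4a1 (-0.23) and Pecam1 (-0.17), and with 1 library left out Itgb5 (-0.012 to 0.14, below 0 without CLP replicate 2), Clec1b (-0.0069 to 0.21, below 0 without CLP replicate 2) and Slc4a1 (-0.13 to 1.05, with -0.13 and -0.062 without Sham replicates 1 and 2). None of these 8 was called in the main comparison.

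The share of Itgad among the beta2 partner chains was 93.4% in CLP with the longest transcript as length, and 94.8% in both groups over unshared exons. Same-numbered CLP and sham libraries did not deviate together as a rule (correlations across genes 0.074, -0.038, 0.26 and -0.19), so the replicate number was not taken as a pairing. The 0.26, for replicate 3, was the highest correlation between any CLP and any sham library. The replicate block gave 8 higher and 0 lower integrin genes. A ratio's difference is the same with and without the block by arithmetic, and its exact sign-flip p cannot go below 0.125 with 4 pairs (0.125 for Itga4 to Itgb1, difference 0.56), so the block says nothing about the stability of the ratios. Itgam and Itgb3, at 51 to 141 reads per library, carry the largest counting error.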
